A study of Thlaspi arvense with 6 samples.

Results

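The trehalose-6-phosphate synthase (TPS) family of pennycress nectaries was taken as all loci whose most abundant contig had its best Arabidopsis match among TPS1 and TPS5 to TPS11, 8 Arabidopsis genes in all. This gave 10 of the 12335 pennycress loci in the table, with 11 contigs, and each of the 8 Arabidopsis genes was matched by at least 1 locus (TPS1, AT1G78580; TPS5, AT4G17770; TPS6, AT1G68020; TPS7, AT1G06410; TPS8, AT1G70290; TPS9, AT1G23870; TPS10, AT1G60140; TPS11, AT2G18700). TPS6 and TPS10 were each matched by 2 loci, and TPS2, TPS3 and TPS4 by none. Nectaries of Thlaspi arvense cultivar MN108 were compared at 2 stages, mature and secreting (equivalent to Arabidopsis flower stages 14 to 15) and immature and pre-secretory (stages 11 to 12). There were 3 samples of each stage, each a pool of approximately 100 nectaries by the sample labels (the methods of the study give a higher number) taken by hand from different sets of plants aged about 40 days. Dissections took place over several days at 4 to 8 h after dawn, on plants kept at 21 °C with 16 h of light by the labels (the methods of the study give a slightly higher temperature). The labels give no treatment and the same cultivar for all plants, so that the samples differ by stage and by the set of plants.

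Trehalose 6-phosphate is a sugar phosphate that plants keep at trace levels and that follows the sucrose content of the cell. It is made from UDP-glucose and glucose 6-phosphate by class I synthases, of which TPS1 is the main active enzyme in Arabidopsis, and is removed by trehalose-phosphate phosphatases, which leave trehalose for trehalase to split into glucose. It restrains the SnRK1 kinase, which is active when carbon is short. The class II proteins, TPS5 to TPS11, carry synthase-like and phosphatase-like domains but are generally regarded as regulators, and several of them are bound by 14-3-3 proteins. In Arabidopsis, transcripts of TPS8 to TPS11 rise under carbon starvation while TPS5 rises with sugar.

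The values, called normalized counts below, are rounded upper-quartile normalized read counts, summed here over the contigs of each locus. They are not divided by contig length, so that each locus was compared between samples and not with the level of another locus. The samples totalled 1.06e+07 to 2.27e+07 normalized counts, behind which stood approximately 11.7 to 16.9 M reads. Reads other than ribosomal RNA and organelle transcripts came to approximately 4.32 to 14.7 M. Mature sample 2 was the shallowest, with ribosomal RNA at 62.9% of its normalized counts. Approximately 41 to 3182 reads lay behind each value of the tested family loci. The 4 nectary markers listed (CRABS CLAW, SWEET9, CWINV4 and JMT) were all present, at a summed 382368 to 427769 normalized counts in mature and 68905 to 115303 in immature nectaries. Of 18 pollen and anther markers 5 had a locus, and their sum was 24342, 2767 and 7934 in mature samples 1, 2 and 3 and 256 to 507 in immature samples. Of 6 phloem markers 4 had a locus, and their sum was 230 to 277 in mature samples and 526, 1419 and 560 in immature samples 1, 2 and 3. Mature sample 1 thus stood highest in pollen markers and immature sample 2 in phloem markers. The table holds only contigs that reached at least 101 in some sample, so that a marker without a locus may be low rather than absent.

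Differences between stages were tested with limma on log2 normalized counts, after addition of 1, for the 11780 loci whose mean reached 100 in at least 1 stage. A locus was called at a Benjamini-Hochberg adjusted p under 0.05. Log2 fold changes below are mature minus immature and carry ± their standard error; the addition of 1 makes them understate the change of low loci. Of the 10 family loci 9 were tested, of which 2 rose and 3 fell in mature nectaries and 4 did not pass. Over all tested loci 28.4% rose and 35.9% fell, or 64.3% together, so that calls in the family were no more frequent than at large. Rescaling the samples by median ratios, or by the loci within the middle quartiles of the ratios, gave 4 that rose and 2 that fell, and rescaling to the total outside ribosomal RNA and organelles 2 and 4. The stages did not overlap for 3 loci that were higher and 4 that were lower in mature nectaries, beside 30.9% and 39.1% of all tested loci (70.1% together). The median log2 fold change of the 9 loci was -0.29, beside -0.09 over all tested loci. The family did not move one way. The single locus not tested, the lesser TPS10 match Ta17278, lay just under the limit with means of 96.3 in mature and 95.7 in immature nectaries, while the lowest tested locus, Ta06395, had 103.7 and 188.7.

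**Figure D1:**
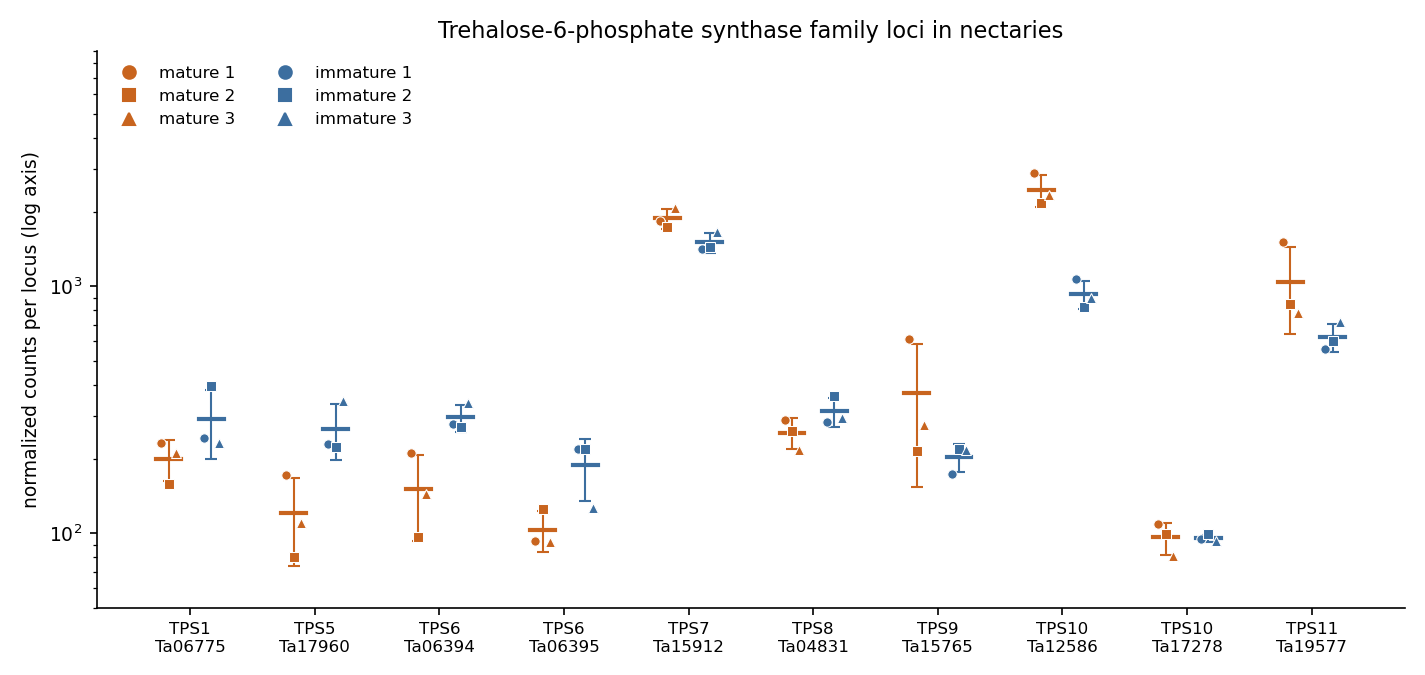
Normalized counts of each of the 10 family loci in the 3 mature (orange, left) and 3 immature (blue, right) samples on a log axis, with each stage's mean as a thick line and its SD as an error bar (n = 3). Counts are not divided by length, so heights of different loci are not comparable. The mature samples of Ta12586 (2167 to 2873) lie far above the immature samples (827 to 1069), while those of Ta17960 (80 to 172) lie below (224 to 343).

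The only class I member, TPS1 (Ta06775), the enzyme that makes trehalose 6-phosphate, had 232, 159 and 212 normalized counts in mature samples 1, 2 and 3, against 243, 395 and 233 in immature samples 1, 2 and 3. The highest mature sample and the lowest immature sample were 1 count apart. Its log2 fold change was -0.50 ± 0.24 (adjusted p = 0.0968), which did not pass. Immature sample 2, at 395, was 1.66 times the mean of the other immature samples, a lead that 2.48% of tested loci reached. The 4 phloem markers, among them the sucrose carrier SUC2 and the companion-cell proton pump AHA3, led in the same sample by 1.75 to 3.60 times. Their part in the TPS1 value was not tested, and in pooled tissue fewer cells of a type and less RNA per cell cannot be told apart. Without that sample the log2 fold change of TPS1 was -0.26 (adjusted p = 0.334). With each sample rescaled to its total outside ribosomal RNA and organelles it was -0.66 and passed (adjusted p = 0.0349).

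The class II members TPS5 and TPS6 fell. TPS5 (Ta17960), the member that responds to sugar in Arabidopsis, had 172, 80 and 110 normalized counts in mature samples against 230, 224 and 343 in immature samples. All mature samples were below all immature ones. TPS5 averaged 121 ± 46.9 in mature nectaries and 266 ± 67.0 in immature ones (± SD, 3 samples each). Its log2 fold change was -1.17 ± 0.29 (adjusted p = 0.0081), the largest fall of the family. It passed in every alternative that kept it, with adjusted p-values of 0.000996 to 0.0359. A stricter limit on the mean, at 500, left it untested together with TPS1, TPS6, TPS8 and TPS9.

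TPS6 was represented by loci Ta06394 and Ta06395, with consecutive pennycress numbers and the same Arabidopsis match. Whether they are separate genes or pieces of the same gene cannot be told apart from the table. Ta06394 had 211, 97 and 144 normalized counts in mature samples against 277, 270 and 338 in immature samples, a log2 fold change of -1.03 ± 0.27 (adjusted p = 0.00983). Ta06395 had 93, 126 and 92 in mature samples against 219, 220 and 127 in immature samples, a log2 fold change of -0.83 ± 0.25 (adjusted p = 0.0201). Both fell with no overlap of the stages, although immature sample 3 of Ta06395, at 127, was next to mature sample 2, at 126. The log2 ratio of Ta06394 to Ta06395 within a sample spanned -0.37 to 1.17 in mature and 0.29 to 1.41 in immature nectaries, so that the pair did not keep a fixed proportion. Ta06394 passed in every alternative that kept it (adjusted p of at most 0.0422), whereas Ta06395 no longer passed without mature sample 3 or immature sample 1 or 2, nor under 2 of the 3 rescalings (adjusted p of up to 0.083).

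TPS7 (Ta15912), of class II, had 1845, 1739 and 2076 normalized counts in mature samples against 1417, 1439 and 1668 in immature samples. The stages did not overlap, yet the change was small. TPS7 averaged 1887 ± 172 in mature nectaries and 1508 ± 139 in immature ones (± SD, 3 samples each), 1.25-fold apart, and the log2 fold change was 0.32 ± 0.14 (adjusted p = 0.0788). Rescaling by the median of ratios or by the middle quartiles brought it to 0.43 and 0.45 with adjusted p-values of 0.0151 and 0.0124. Both of its contigs were higher on average in mature nectaries. The main contig, from the assembly of immature reads, had 1755, 1587 and 1938 in mature against 1318, 1345 and 1591 in immature samples. The minor contig, from the earlier pennycress transcriptome, had 90, 152 and 138 against 99, 94 and 77.

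TPS8 (Ta04831) had 289, 261 and 217 normalized counts in mature samples against 283, 359 and 293 in immature samples. The stages overlapped, and the log2 fold change was -0.29 ± 0.16 (adjusted p = 0.156). In no alternative did TPS8 pass (adjusted p of at least 0.0513). TPS9 (Ta15765) had 615, 216 and 276 normalized counts in mature samples against 174, 219 and 218 in immature samples. The stages overlapped here as well, since mature sample 2 lay within the immature values and mature sample 1 stood far above the rest. The log2 fold change was 0.71 ± 0.35 (adjusted p = 0.107), and 0.27 without mature sample 1 (adjusted p = 0.232). Without mature sample 2 it was 1.02 and passed (adjusted p = 0.0242), as it did under the median of ratios and the middle quartiles (adjusted p = 0.0357 and 0.0309).

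TPS10 (Ta12586), a class II member that rises under carbon starvation in Arabidopsis, changed the most. It had 2873, 2167 and 2337 normalized counts in mature samples against 1069, 827 and 901 in immature samples. Each mature sample had more than 2 times the count of the highest immature sample. TPS10 averaged 2459 ± 368 in mature nectaries and 932 ± 124 in immature ones (± SD, 3 samples each), 2.64-fold higher in mature nectaries, and its log2 fold change was 1.40 ± 0.17 (adjusted p = 0.00018). It was the only family locus called higher with a ratio of means above 2, which held for 13.8% of all tested loci, as TPS5 was the only family locus called lower with a ratio below 0.5 (23.1% of all tested loci). The fold change of TPS10 stayed between 1.24 and 1.52 over all alternatives, with adjusted p-values of at most 0.00129.

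Other sequences matched to TPS10 did not follow. The locus Ta17278 had 109, 99 and 81 normalized counts in mature samples against 95, 99 and 93 in immature samples, which overlap. A further 2 contigs matched to TPS10 had no pennycress locus and were thus outside the 10 loci. The first, from the assembly of immature reads, had 74, 72 and 45 in mature against 115, 121 and 98 in immature samples. The second, from the earlier transcriptome, had 90, 23 and 47 against 135, 142 and 122. Both fell, with log2 fold changes of -0.83 ± 0.25 and -1.50 ± 0.45 in a fit over the 14936 contigs that met the same limit (adjusted p = 0.0233 and 0.0198), where 34.2% of contigs fell. Both met that limit only through their immature means, 111.3 and 133.0, against 63.7 and 53.3 in mature samples. The limit thus favoured a fall of these contigs. The sources used here do not say how reads matching several similar contigs were shared among them, so that the split among TPS10 sequences is uncertain.

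TPS11 (Ta19577), likewise raised by carbon starvation in Arabidopsis, had 1508, 848 and 782 normalized counts in mature samples against 557, 599 and 715 in immature samples. The stages did not overlap, but mature sample 1 was far above the others. TPS11 averaged 1046 ± 401 in mature nectaries and 624 ± 81.8 in immature ones (± SD, 3 samples each), and its log2 fold change was 0.69 ± 0.25 (adjusted p = 0.0404). This call had the highest adjusted p of the 5. Without mature sample 1 the log2 fold change was 0.39 (adjusted p = 0.0605), the ratio of means was 1.31 in place of 1.68, and leaving out immature sample 1, 2 or 3 also ended the call (adjusted p = 0.123, 0.0967 and 0.0528).

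**Figure D2:**
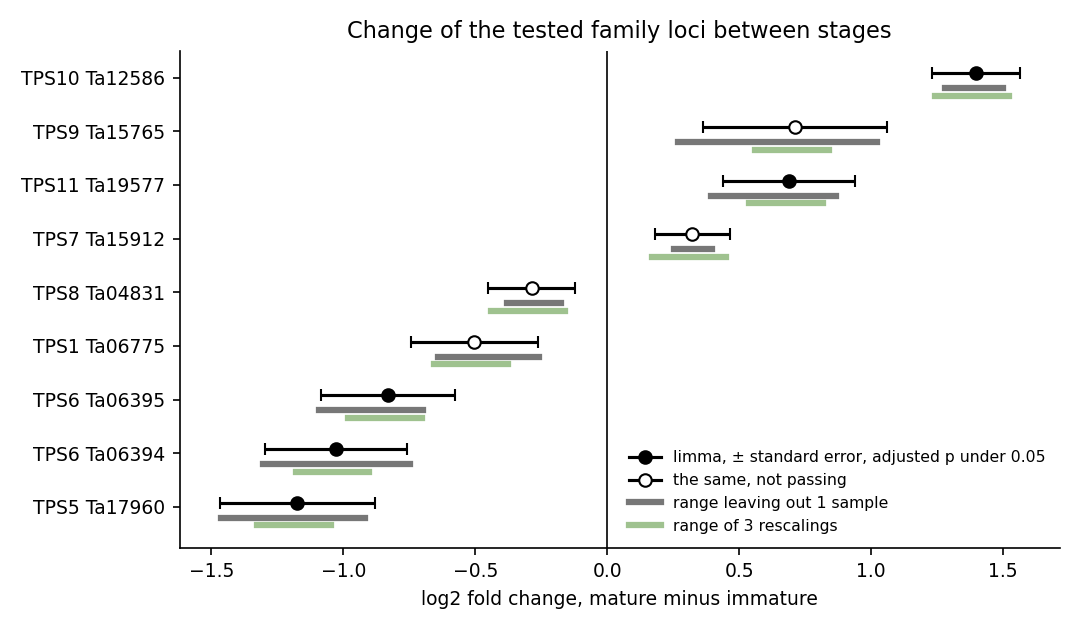
Log2 fold change, mature minus immature, of the 9 tested family loci, sorted by size, with the limma standard error as error bar. Filled points passed an adjusted p of 0.05; grey and green lines below them give the range when 1 sample is left out and under 3 rescalings. Ta12586 (1.40) stands apart at the top and Ta17960 (-1.17) at the bottom, and no locus changed sign within these ranges.

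Several members were high in mature sample 1, the sample with the highest sum of pollen markers. The ratio of mature sample 1 to the mean of mature samples 2 and 3 was 2.50 for TPS9, 1.85 for TPS11, 1.81 for TPS5 and 1.75 for Ta06394 of TPS6, beside a median of 1.16 over all tested loci. Such leads were reached by 3.70%, 7.38%, 7.83% and 8.78% of tested loci. It was 1.28 for TPS10, 1.25 for TPS1, 1.21 for TPS8, 0.967 for TPS7 and 0.853 for Ta06395. The 5 pollen and anther markers, among them the pollen pectin methylesterase VGD1 (13877, 1583 and 4424 in mature samples), had ratios of 3.86 to 4.74. Loci of the carbon starvation list described below led in mature sample 1 too. ASN1, DIN10, DRM2 and the loci matched to SEN1 and SEN5 had ratios of 2.20 to 4.92. KMD4 and DIN3 of that list had 1.56 and 1.19. Neither the part of pollen RNA in the values of TPS9, TPS11, TPS5 and TPS6 nor their relation to the starvation loci was tested. Without that sample the log2 fold change was -1.46 for TPS5, -1.30 for Ta06394 and 1.28 for TPS10. Leaving it out did not remove the difference between stages in pollen markers. Their sum was 2767 and 7934 in mature samples 2 and 3, against 256 to 507 in immature samples. The part of pollen RNA in the TPS10 value was not tested either.

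**Figure D3:**
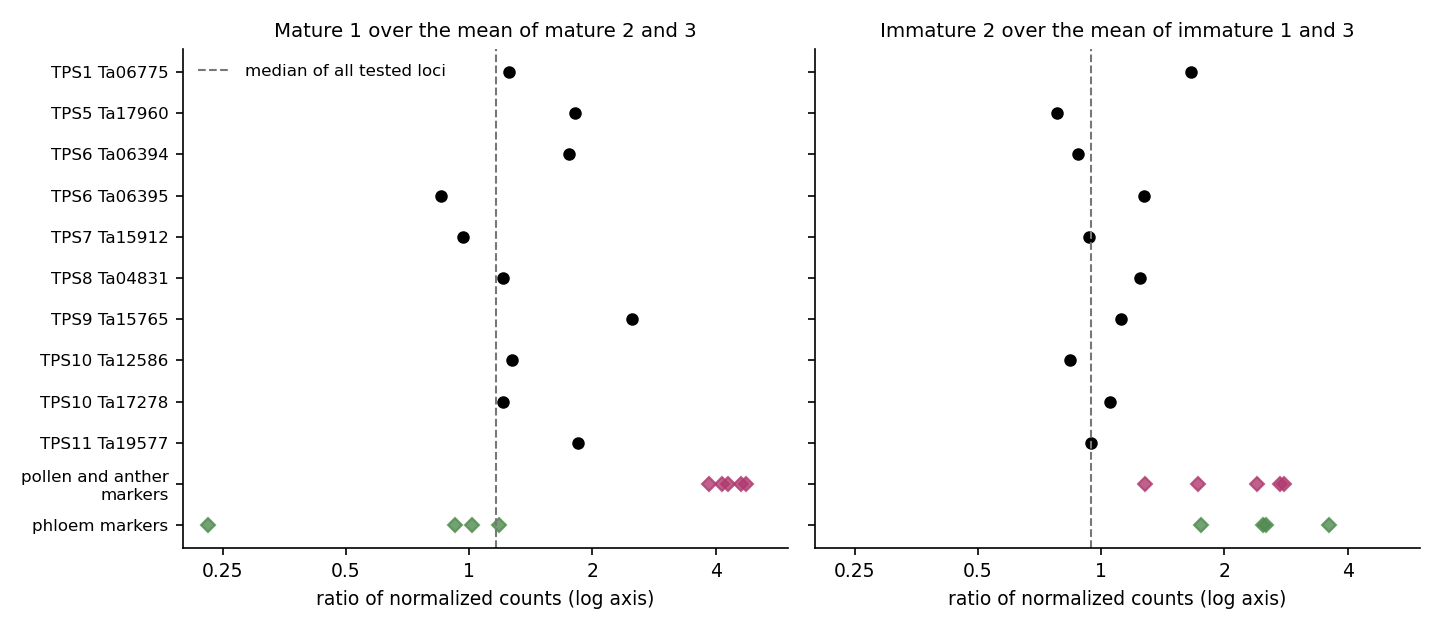
Ratio of mature sample 1 to the mean of mature samples 2 and 3 (left) and of immature sample 2 to the mean of immature samples 1 and 3 (right) on log axes, for the 10 family loci (black), 5 pollen and anther markers (pink) and 4 phloem markers (green); dashed lines are medians over tested loci (1.16 and 0.946). TPS9 leads the family on the left at 2.50, below the pollen markers (3.86 to 4.74), and TPS1 on the right at 1.66, near the lowest phloem marker (1.75).

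Ratios of members within a sample do not depend on how samples are scaled against each other. The log2 ratio of TPS10 to TPS7 averaged 0.38 ± 0.24 in mature nectaries and -0.70 ± 0.26 in immature ones (± SD, 3 samples each), a shift of 1.07. Against TPS5 it averaged 4.40 ± 0.34 in mature nectaries and 1.83 ± 0.41 in immature ones, a shift of 2.57, and against TPS1 3.61 ± 0.15 and 1.71 ± 0.57, a shift of 1.90. TPS10 thus gained on both the synthase TPS1 and the falling class II members. These shifts restate the fold changes given above, TPS10 being the family locus that changed the most. For 6 of the other 8 tested loci the ratio to TPS10 did not overlap between the stages, beside 75.3% over all pairs of tested loci. The exceptions were TPS9 and TPS11, with shifts of 0.68 and 0.71. TPS9 and TPS11 kept nearly the same proportion, at a log2 ratio of -1.59 ± 0.35 in mature and -1.61 ± 0.14 in immature nectaries. The ratio of TPS5 to Ta06394 of TPS6 shifted by only -0.15 on the log2 scale, although its values (-0.39 to -0.27 in mature and -0.27 to 0.02 in immature nectaries) just failed to overlap. Over all 36 pairs of tested family loci the ratio did not overlap between stages for 23, or 63.9%, beside 75.3% over all pairs of tested loci, so that unequal change among the members was no more frequent than among loci at large.

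**Figure D4:**
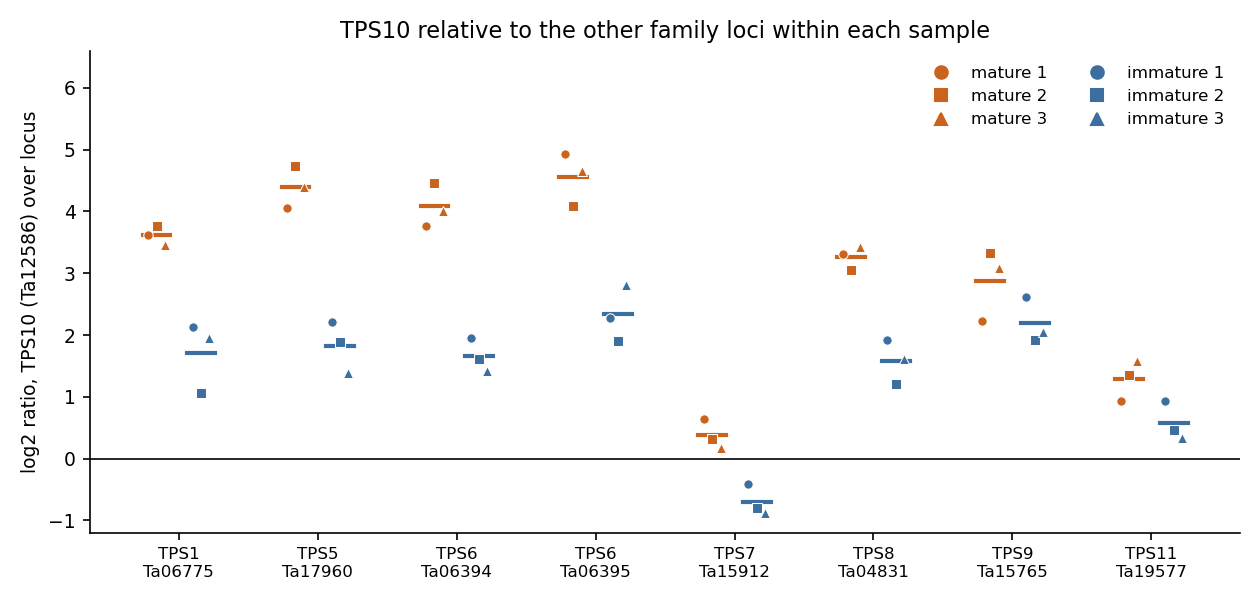
Log2 ratio of TPS10 (Ta12586) to each of the other 8 tested family loci within each mature (orange, left) and immature (blue, right) sample, with the mean of each stage as a line. Mature samples lie above immature ones without overlap for 6 loci, and the samples overlap for TPS9 and TPS11.

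The steps after the synthase were sparsely represented. Of the 10 Arabidopsis trehalose-phosphate phosphatases 3 had a locus, 2 of them tested, of which 1 rose. Over all tested loci 28.4% rose and 35.9% fell, and 2 loci are too few to set beside these shares. TPPJ (Ta02585) had 115, 212 and 186 normalized counts in mature samples against 8, 50 and 12 in immature samples. Its log2 fold change was 3.20 ± 0.61 (adjusted p = 0.00218), and it passed in each alternative that kept it. The immature values of TPPJ were low and uneven. Immature sample 2, the highest in phloem markers, was 5 times the mean of the other immature samples, a lead that 0.17% of tested loci reached. Without immature sample 2 the log2 fold change of TPPJ was 3.94. TPPI (Ta00913) had 136, 198 and 84 against 144, 69 and 27, which overlap (log2 fold change 1.01 ± 0.57, adjusted p = 0.152). TPPI depended on single immature samples, with a log2 fold change of 1.58 that passed without immature sample 1 (adjusted p = 0.0299) and of 0.39 without immature sample 3 (adjusted p = 0.471). TPPB (Ta06735) had 112, 29 and 66 in mature samples and was listed at 2, 0 and 1 in immature samples, below the limit for the test. The trehalase locus Ta11592 had 502, 208 and 203 against 128, 185 and 163, with no overlap but with mature sample 1 again far above the rest (log2 fold change 0.82 ± 0.34, adjusted p = 0.0668). Its unadjusted p was 0.0448. Without mature sample 1 the log2 fold change was 0.39 (adjusted p = 0.113), while it passed without mature sample 2 or 3 (adjusted p = 0.0403 and 0.0479) and under the same 2 rescalings that raised TPS7 (adjusted p = 0.0247 and 0.0215). From the most abundant contig of the trehalase locus alone, the log2 fold change was 0.61 and did not pass (adjusted p = 0.231).

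Of the SnRK1 kinase and its upstream kinases, 8 of 10 listed genes had a locus, of which 3 rose, none fell and 5 fell short of the threshold (median log2 fold change 0.26), where 28.4% of all tested loci rose and 35.9% fell. KIN10 (Ta10025), the main catalytic subunit, had 2859, 1752 and 2861 normalized counts in mature samples against 1111, 978 and 1165 in immature samples, a log2 fold change of 1.17 ± 0.21 (adjusted p = 0.00165). The stages were far apart. The beta subunit KINB3 (Ta12234) rose by 0.86 (350, 233 and 320 against 158, 141 and 196, adjusted p = 0.0059). The activating kinase GRIK1 (Ta22835) rose by 0.46 (162, 183 and 155 against 119, 116 and 126, adjusted p = 0.0247) and no longer passed without immature sample 1 or 2 or when rescaled to the total outside ribosomal RNA and organelles (adjusted p of up to 0.135). The other catalytic subunit KIN11 (Ta18674) had 939, 644 and 757 against 630, 536 and 651 and the beta-gamma subunit SNF4 (Ta07480) 743, 547 and 780 against 544, 586 and 689. KINB2 (Ta10655) averaged 486 and 521 and KING1 (Ta24018) 1198 and 1224 in mature and immature nectaries. KINB1 (Ta03448) had 492, 126 and 172 against 408, 261 and 307, again with mature sample 1 highest. None of these 5 passed with all samples and the deposited scaling. Without mature sample 1, however, KINB1 fell (log2 fold change -1.11 in place of -0.54, adjusted p = 0.00358), and KIN11 rose without mature sample 2 and under the median of ratios and the middle quartiles (adjusted p = 0.0294, 0.00803 and 0.00613).

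Of 9 bZIP transcription factors of groups C and S1, which act with SnRK1 in the response to low sugar, 3 had a locus and all were of group C. Of these 3, 2 rose and 1 fell, where 64.3% of all tested loci were called, and 3 loci are too few to compare. bZIP10 (Ta17854) had 1165, 759 and 932 normalized counts in mature samples against 296, 267 and 315 in immature samples, a log2 fold change of 1.68 ± 0.18 (adjusted p = 9.53e-05). bZIP25 (Ta07927) rose by 0.52 (adjusted p = 0.025). bZIP63 (Ta04572), a target of KIN10 in Arabidopsis, fell to 298, 97 and 139 in mature samples, against 424, 372 and 347 in immature samples (log2 fold change -1.25 ± 0.36, adjusted p = 0.0156). The calls of bZIP63 and bZIP25 were both lost without mature sample 3 or immature sample 1, and that of bZIP25 also without mature sample 1 or immature sample 2 (adjusted p of up to 0.0864).

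Of 11 carbon starvation genes of Arabidopsis listed outside the TPS family, 7 had a locus, and of their 7 tested loci 2 rose, none fell and 5 did not pass, a share of rises near the 28.4% of all tested loci. KMD4 (Ta26627), an F-box protein, had 2237, 1286 and 1581 normalized counts in mature samples against 725, 576 and 764 in immature samples (log2 fold change 1.28 ± 0.22, adjusted p = 0.00124). DIN3 (Ta04153), of branched-chain amino acid breakdown, rose by 0.67 (adjusted p = 0.0129). The DIN3 call was lost without immature sample 1 or 2 (adjusted p = 0.0572 and 0.0562). The list had a median of 0.38. Its loci under the limit for the test went both ways. ASN1 (Ta23820) had 209, 21 and 64 in mature samples against 9, 6 and 8 in immature samples, with no overlap. Ta04660, matched to SEN1, had 70, 16 and 26 against 103, 71 and 45, which overlap. The 101 that a listed contig needs was reached only in mature sample 1 for ASN1 and only in immature sample 1 for Ta04660. That limit favoured the direction of each. DIN10 (Ta03533), a raffinose synthase chosen here after its values were seen, had 2272, 690 and 531 in mature samples against 1392, 1053 and 1252 in immature samples. Mature sample 1 stood apart in most of the list. Its ratio to the mean of mature samples 2 and 3 was 3.72 for DIN10. It was 2.20 to 4.92 for ASN1, DRM2 and the loci matched to SEN1 and SEN5, and 1.56 and 1.19 for KMD4 and DIN3. Without mature sample 1 the list had 4 calls, 2 in each direction, and without mature sample 2 it had 4 that rose.

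The 13 tested loci of 14-3-3 proteins also moved both ways, with 2 that rose, 3 that fell and 8 that did not pass, at a median log2 fold change of -0.02. Fewer of them were called than the 64.3% of all tested loci. GRF6 (Ta02553) rose by 1.34 (adjusted p = 0.00048). Ta23666, matched to GRF1, fell by 2.53 (adjusted p = 0.000146), GRF5 (Ta04385) fell by 1.47 (adjusted p = 0.000119) and GRF11 (Ta23574) fell by 0.92 (adjusted p = 0.00319), all on the log2 scale. Ta23666 and GRF11 met the limit for the test only through their immature means (489 and 125, against 85.7 and 65.3 in mature samples), which favoured a fall. The other locus matched to GRF1, Ta23665, had 2495, 1943 and 2468 normalized counts in mature samples against 2191, 2058 and 1960 in immature samples and did not pass (adjusted p = 0.429). Of 5 loci that supply the substrates, UGP1 (Ta04503), which makes UDP-glucose, rose by 0.58 (adjusted p = 0.034), and PGM3 (Ta13459), a cytosolic phosphoglucomutase, fell to 452, 251 and 431 in mature samples, against 1317, 1490 and 2329 in immature samples (log2 fold change -2.18 ± 0.28, adjusted p = 0.000288). The stages of UGP1 overlapped, with mature sample 2 at 3758 and immature sample 3 at 3784. The UGP1 call was lost without mature sample 1 or 3 or immature sample 1 or 2 (adjusted p of up to 0.131). The other 3, HXK2, PGM2 and the cytosolic phosphoglucose isomerase, did not pass. Over all tested loci 28.4% rose and 35.9% fell, so that calls among these 5 were no more frequent than at large.

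**Figure D5:**
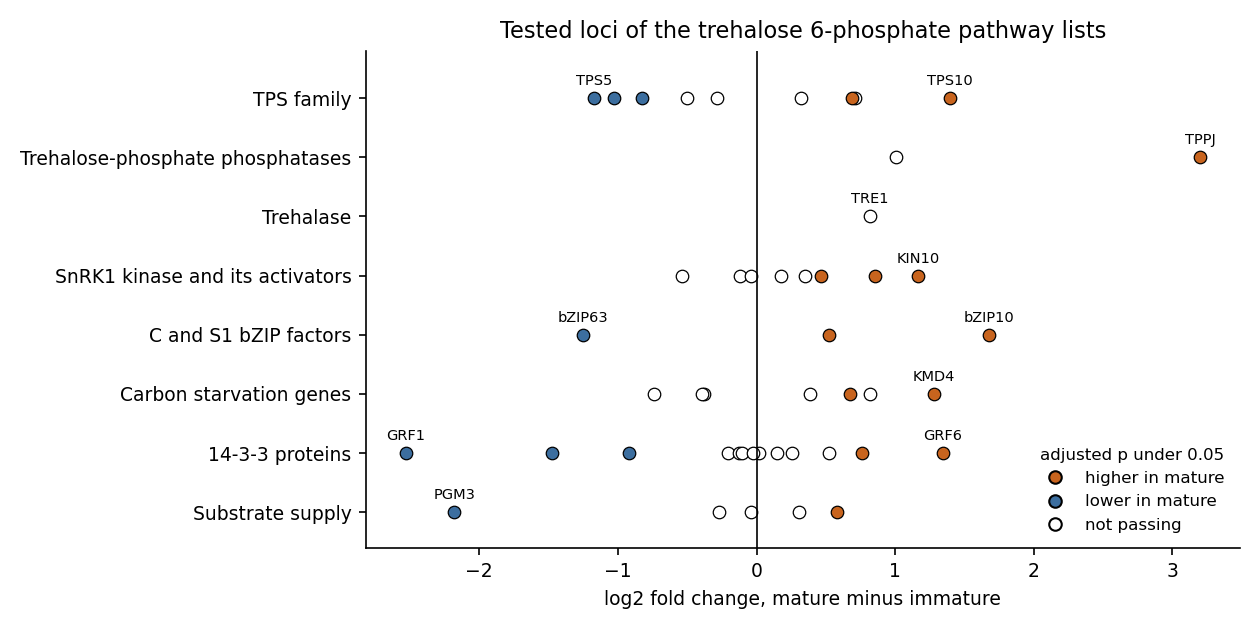
Log2 fold change, mature minus immature, of every tested locus of the TPS family and of 7 lists of related genes, with the color giving the call at an adjusted p of 0.05. The TPS family spans -1.17 to 1.40, TPPJ (3.20) is the highest point and a GRF1 locus (-2.53) the lowest.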

How the data were processed

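The deposited scores, whole numbers per contig and sample, are counts that the authors upper-quartile normalized and rounded. Per the paper, Trinity contigs of each stage were merged with an earlier pennycress transcriptome and blastn (E-value limit 1e-05) assigned the reads. Deposited columns of stage means, SD, ratios, calls and DESeq p-values were not used. The pennycress genome entered only through the deposited assignment of contigs to predicted loci, and contig lengths and sequences were not used here.

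Values were summed per predicted pennycress locus and named by the contig with the highest mean. limma 3.58.1 (R 4.3.3) with a mean-variance trend was run on log2(sum + 1) without a replicate block. No count model was applied. Python 3.11.15 with pandas 2.3.3, numpy 2.4.6 and matplotlib 3.10.9 made tables and figures. Approximate reads came from the spacing of low values in each sample (0.627 to 1.945 normalized counts per read). Alternatives were pseudocounts of 0.5 and 10, other limits on low values, 3 rescalings, the most abundant contig, other limma settings, a replicate block, an adjusted p under 0.01 and leaving out each sample. The fit was run on simulated data with the same dispersion for every locus and few changed loci. The real data differ in both, so that this run does not show how the fit performs on them.

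The members and gene lists, written from textbook knowledge, were chosen with earlier results of these data known. Named were all members, all measured phosphatases, trehalase and SnRK1 loci, up to 4 called loci of other lists by adjusted p, and for each member the 2 nearest loci whose mean reached 500 in at least 1 stage. For a single locus the smallest exact permutation p (two-sided) of this design is 0.1, so that none was computed. Of the other marker lists, guard cells had 2 of 5 genes with a locus (1 fell), carpel and ovule 1 of 4 (it fell) and xylem none of 4.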

Additional observations from a re-analysis of the deposited data

How the results depend on the processing

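Rescaling moved the median log2 fold change of all loci from -0.09 to -0.26 (total outside ribosomal RNA and organelles), 0.03 (median of ratios) and 0.06 (middle quartiles), and the family calls to 2 higher and 4 lower under the first and 4 higher and 2 lower under each of the others, in place of 2 and 3. None of the 9 tested family loci changed sign in any of the alternatives run. Family loci called higher numbered 1 without the limma trend and at an adjusted p under 0.01, and 1 to 3 when 1 sample was left out; those called lower numbered 0 of 3 at a mean of at least 500, where low loci are not tested, and 2 to 3 when 1 sample was left out. At that limit all loci called numbered 1856 higher and 1566 lower in place of 3348 and 4225, and the lists had 0 phosphatases, 1 SnRK1 locus and 3 14-3-3 loci. At an adjusted p under 0.01, C and S1 bZIP factors, carbon starvation genes and substrate supply had 1 each. Without a filter 2 phosphatases were called. Trehalase was called (1 locus) under the median of ratios and the middle quartiles.

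When 1 sample was left out, calls ranged from 1 to 2 for phosphatases (TPPI being added), 2 to 4 for SnRK1 loci (of which KINB1 was lower without mature sample 1), 0 to 1 for trehalase, 1 to 3 for bZIP factors, 1 to 4 for carbon starvation genes and 1 to 3 for substrate supply; without mature sample 1 or 2 the starvation list had 4. Of 36 member pairs, 22 to 27 did not overlap in all alternatives run. KINB2 (Ta10655), not called in any, was turned to a log2 fold change of 0.0055 under the middle quartiles, and KING1 (Ta24018), not called either, to 0.062 and 0.086 under the median of ratios and the middle quartiles, with a range of -0.19 to 0.041 when 1 sample was left out. Weights from voom on the approximate reads, chosen after seeing the data, gave 2 higher and 3 lower.

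Replicate numbers were not treated as pairs, since same-numbered samples deviated together at correlations of -0.07, 0.01 and 0.20, and only the samples numbered 3 correlated best with their own number. With a replicate block the family kept 2 higher and 3 lower, 2 phosphatases (TPPI added, adjusted p = 0.0394) and 4 starvation loci were called, and 3454 and 4320 loci in all.

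The cause of these changes was not tested. With 3 samples a stage and approximately 41 to 3182 reads behind a value of a tested family locus, differences of the size seen for TPS8 did not pass, and the p-values cover the spread between pools of nectaries from different plants.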

Other observations

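The loci most like each member were sought among 4951 others whose mean reached 500 in at least 1 stage, by the root mean square difference over the 6 samples of log2 values centred on each locus, as a description only. Nearest to TPS10 (Ta12586) were Ta15913, a Ras-related small GTP-binding protein, and Ta02975 (MEI2-like protein 5), at 0.05 and 0.06. Nearest to TPS5 were Ta03530, matched to sucrose phosphate synthase 1F, an enzyme of sucrose synthesis, and Ta16872, matched to phosphoglucan, water dikinase, an enzyme of starch breakdown, at 0.07 and 0.09. Both had about 2 times more normalized counts in immature nectaries, with means of 487 in mature and 1068 in immature samples for Ta03530 and 478 and 1058 for Ta16872. Ta06394 of TPS6 lay nearest to Ta12737, an alpha/beta-hydrolase, and Ta09943, matched to sulfite oxidase, at 0.05 and 0.08. TPS7 lay nearest to Ta18592, a clathrin adaptor subunit, at 0.03, and Ta05956, a peptidase of family M48, at 0.04. TPS11 lay nearest to the kinases Ta08571 and Ta21070 (0.08 and 0.09).

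The nearest loci of TPS1 were farther off, at 0.19 for Ta08853 (pectin methylesterase inhibitor 2) and 0.20 for Ta11354 (the aquaporin PIP1;5). For TPS9 they were Ta23972, of a ribosomal protein family, and Ta20941, at 0.13 and 0.14. For Ta06395 they were Ta19813 and Ta10130, a mitochondrial import protein, at 0.12 and 0.13. For TPS8 they were Ta17494, an Integrase-type DNA-binding protein, and Ta06982, at 0.08 and 0.09, and for Ta17278 they were Ta13513 and Ta14744, both at 0.05. Within the family TPS5 and Ta06394 were the closest pair, at 0.13, and TPS9 and TPS11 lay at 0.22.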
